A study of Mus musculus with 2 samples.

Results

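The genes for neuronal microtubule-associated proteins (MAPs) and stathmins were followed in total RNA from mouse hippocampus. The 10 genes were chosen by symbol: Map2, Mapt, Map1a, Map1b, Map4 and Map6, which code for MAPs, and Stmn1, Stmn2, Stmn3 and Stmn4, which code for stathmins. They are 10 of 55536 annotated genes, and all 10 were matched exactly by symbol and passed the count minimum used for ratios. Together they have 91 annotated transcripts, of which 38 carry a complete coding sequence.

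The libraries came from female mice at 25 days of age of the strain B6CASTF1/J, the first-generation hybrid of C57BL/6 and the wild-derived CAST strain. The tissue is labelled as a layer of the hippocampus, and no treatment or altered allele is named. There is 1 group with replicates 1 and 2, each made from 300 ng of RNA with ribosomal RNA reduced and ERCC spike-ins added. The labels give the replicates separate biosamples but 1 donor entry, so the spread between them may be technical.

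Microtubules are hollow polymers of tubulin that give axons and dendrites their shape and carry transport. MAPs bind along the polymer and stabilise or space it: MAP2 is known for dendrites and tau, the product of Mapt, for axons. Stathmins act in the other direction, holding free tubulin dimers and favouring disassembly, and phosphorylation switches them off. MAP2, tau and MAP4 share a carboxy-terminal domain built from repeats that touch the microtubule, and alternative exons change both the number of repeats and the length of the projecting arm.

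The alternative repeat exon of 93 bases of Map2 and Map4 is shown first. Complete annotated transcripts that contain it held different shares of RNA in these genes. Positions are on mm10 and sequences are taken from GENCODE M21 transcripts, 5′ to 3′ in the mRNA, with capitals where both genes have the same base. The exon lies at chr1:66431527-66431619 (plus strand) in Map2 and at chr9:110072613-110072705 (plus strand) in Map4.
Map2: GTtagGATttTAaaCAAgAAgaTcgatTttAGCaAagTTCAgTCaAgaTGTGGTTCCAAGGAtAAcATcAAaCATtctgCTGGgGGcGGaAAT
Map4: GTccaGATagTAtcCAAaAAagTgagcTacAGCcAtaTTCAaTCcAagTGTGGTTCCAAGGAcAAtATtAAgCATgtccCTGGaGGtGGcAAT
Both genes had the same base at 59 of 93 positions, or 63.4%. The coding exon of 82 bases that follows was identical at 61.0% of bases and the next one, of 113 bases, at 72.6%.

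The 4 stathmin genes share a coding exon of 192 bases, which lies within the tubulin-binding stathmin-like domain that defines the family. It is shown because reads from it could in principle be confused between the genes. It lies at chr4:134472804-134472995 (plus strand) in Stmn1, chr3:8554792-8554983 (plus strand) in Stmn2, chr2:181307216-181307407 (minus strand) in Stmn3 and chr14:66357846-66358037 (plus strand) in Stmn4, with capitals where all 4 genes have the same base.
Stmn1: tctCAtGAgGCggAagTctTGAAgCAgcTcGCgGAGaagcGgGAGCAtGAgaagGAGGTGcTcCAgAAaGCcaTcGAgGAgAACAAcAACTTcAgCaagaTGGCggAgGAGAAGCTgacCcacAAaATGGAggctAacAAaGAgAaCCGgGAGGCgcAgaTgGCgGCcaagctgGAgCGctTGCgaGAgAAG
Stmn2: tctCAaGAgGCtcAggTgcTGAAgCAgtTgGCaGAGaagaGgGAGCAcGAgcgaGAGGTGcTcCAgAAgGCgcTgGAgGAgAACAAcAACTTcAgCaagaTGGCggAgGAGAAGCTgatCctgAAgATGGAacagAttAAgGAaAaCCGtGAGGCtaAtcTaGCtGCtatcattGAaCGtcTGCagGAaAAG
Stmn3: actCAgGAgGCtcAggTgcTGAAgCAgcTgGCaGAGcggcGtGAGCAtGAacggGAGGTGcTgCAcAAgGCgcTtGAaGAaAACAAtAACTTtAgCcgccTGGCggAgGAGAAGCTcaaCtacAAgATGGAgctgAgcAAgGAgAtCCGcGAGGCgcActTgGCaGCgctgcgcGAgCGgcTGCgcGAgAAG
Stmn4: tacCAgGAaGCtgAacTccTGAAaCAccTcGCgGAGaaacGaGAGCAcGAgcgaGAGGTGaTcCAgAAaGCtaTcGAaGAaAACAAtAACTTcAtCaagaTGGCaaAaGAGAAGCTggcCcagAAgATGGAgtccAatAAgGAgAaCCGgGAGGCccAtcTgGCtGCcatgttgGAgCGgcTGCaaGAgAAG
The 4 exons shared 111 of 192 bases. Stmn1 and Stmn4 were the closest pair at 79.2% identity and Stmn3 and Stmn4 the farthest at 69.8%. Gene-level expected counts were whole numbers for Stmn2, Stmn3 and Stmn4, which leaves no sign of reads divided between them and another gene. Stmn1 was the exception, with 3257.35 and 4508.24 expected counts in replicates 1 and 2, which means that part of its reads were shared with other entries of the table.

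Depth was 34919989 expected counts in replicate 1 and 41206890 in replicate 2, and the 10 genes took 0.671% and 0.627% of them. Hippocampal, neuronal and glial marker genes were all detected in both libraries. Summed TPM (a level per transcript length, scaled to the same total in each library) of the 6 neuronal markers was 1745 and 1637, of the 5 oligodendrocyte markers 1343 and 1371, and of the 5 astrocyte markers 491 and 496. The 5 markers of immature neurons summed to 59.2 and 59.0 TPM and the 6 hippocampal markers to 440 and 372. In a mixed tissue, fewer cells of a type and less RNA per cell cannot be told apart. The part of neurons and of glia in the MAP and stathmin RNA was not tested.

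The 6 MAP genes together reached 1406 TPM in replicate 1 and 1244 in replicate 2, a mean of 1325 ± 114 (SD, n = 2). The 4 stathmin genes reached 719 and 777 TPM, a mean of 748 ± 41.5. Thus the summed TPM of the MAP genes was above that of the stathmin genes in each library. The sums cover 6 genes against 4 and do not compare levels per gene. The share of TPM held by nuclear protein-coding genes differed between the quantifications, at 43.4% and 42.0% in the first and 73.5% and 74.0% in the second. Rescaled so that nuclear protein-coding genes alone make up the TPM total, the MAP genes summed to 3240 and 2964 and the stathmin genes to 1656 and 1851. The second deposited quantification, made directly from reads, gave 3177 and 2827 for the MAP genes and 1782 and 2028 for the stathmin genes on that rescaled basis.

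Map2 (ENSMUSG00000015222.17, chromosome 1, 66175273 to 66442583), which codes for the main dendritic MAP, stood first. Its level was 438 TPM in replicate 1, against 395 in replicate 2, and it ranked 69 and 80 among nuclear protein-coding genes. Map1b (ENSMUSG00000052727.6, chromosome 13, 99421446 to 99516540), a large MAP of growing axons, was at 289 and 252 TPM. Map1a (ENSMUSG00000027254.13, chromosome 2, 121289600 to 121310832), its counterpart of mature neurons, was at 255 and 209 TPM. Both MAP1 proteins are made as a precursor that is cut into a heavy and a light chain. Map4 (ENSMUSG00000032479.15, chromosome 9, 109931460 to 110083955), a MAP of many cell types, was at 254 and 236 TPM. Mapt (ENSMUSG00000018411.17, chromosome 11, 104231390 to 104332090), the tau gene, was lower at 125 and 112 TPM. Map6 (ENSMUSG00000055407.14, chromosome 7, 99267447 to 99337137), which codes for the stable tubule only polypeptide, was the lowest of the MAP genes and of all 10 at 44.8 and 41.3 TPM. It ranked 2294 and 2388 among nuclear protein-coding genes.

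Among the stathmins, Stmn3 (ENSMUSG00000027581.12, chromosome 2, 181306459 to 181314500), a membrane-attached neuronal stathmin, was highest, with 255 and 275 TPM. Stmn2 (ENSMUSG00000027500.10, chromosome 3, 8509360 to 8561606), known for growth cones and axon maintenance, was at 207 and 221 TPM. Stmn1 (ENSMUSG00000028832.11, chromosome 4, 134468320 to 134473843), the cytosolic founding member also made in dividing cells, was at 142 and 157 TPM. Stmn4 (ENSMUSG00000022044.14, chromosome 14, 66344296 to 66361680), another membrane-attached form, was lowest at 115 and 124 TPM. In this quantification Stmn3 lay at the level of Map1b, Map4 and Map1a, and Stmn4 at that of Mapt.

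Ordered by mean TPM, the genes ran Map2, Map1b, Stmn3, Map4, Map1a, Stmn2, Stmn1, Stmn4, Mapt and Map6. The ranges of the libraries overlapped for 4 neighbouring pairs: Map1b with Stmn3, Map4 with Map1a, Map1a with Stmn2, and Stmn4 with Mapt. Stmn3 and Map4 were set apart only narrowly, since Map4 in replicate 1, at 254.04 TPM, fell just short of Stmn3 in replicate 1, at 255.22. The second quantification kept Map2 first and Map6 last, but placed Stmn3 and then Map4 ahead of Map1b. On its rescaled basis Stmn3 was at 638 and 709, Map4 at 625 and 606 and Map1b at 556 and 494. Lower in the order, Stmn1 at 424 and 488 and Stmn4 at 383 and 475 both stood above Stmn2 at 337 and 356. Stmn4 also stood well above Mapt, which was at 239 and 221.

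**Figure D1:**
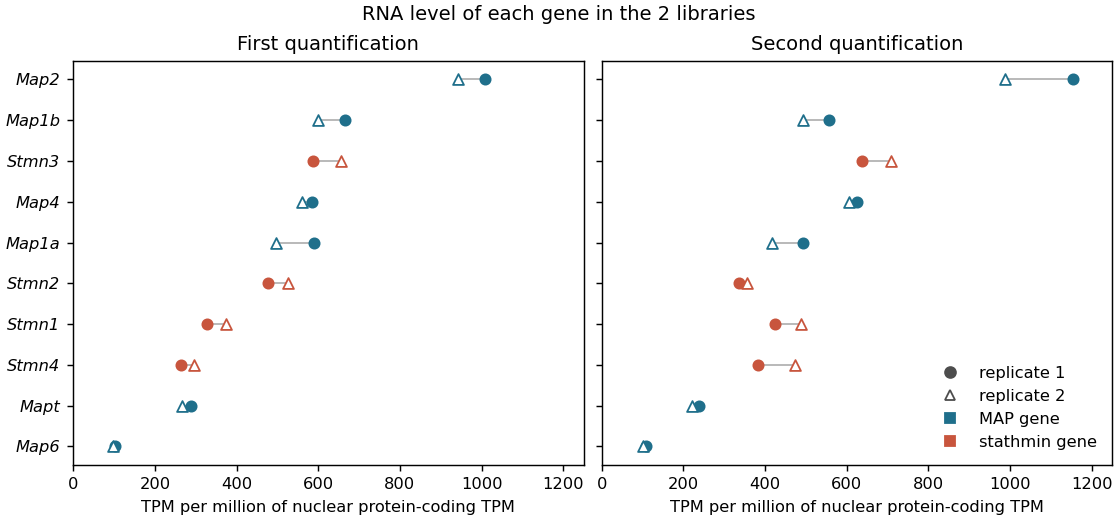
Level of each gene in both libraries, as TPM rescaled over nuclear protein-coding genes, on a linear axis from 0, in the first deposited quantification (left) and the second (right). Circles are replicate 1, open triangles replicate 2. Map2 is farthest right and Map6 farthest left in both panels, and in each pair of points the MAP genes have the circle to the right and the stathmins the triangle.

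Between the libraries, no member was 2-fold apart in TPM (0 of 10), against 0.825% of the 12962 genes whose expected counts summed to 200 or more. None was 1.5-fold apart either, against 3.88% of those genes. All 6 MAP genes had lower TPM in replicate 2, where 64.9% of all tested genes were lower. All 4 stathmin genes had higher TPM in replicate 2, where 34.7% of all tested genes were higher. With 1 library against 1 there is no test of these differences. On the log2 scale the median difference, replicate 2 over replicate 1, came to -0.15 for the MAP genes and 0.11 for the stathmins, beside -0.07 for all tested genes.

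Map1a differed most among the MAP genes, with a TPM ratio of replicate 2 to replicate 1 of 0.817 (95% counting interval 0.808 to 0.826) from 60947 and 62547 counts. Map1b had a ratio of 0.870 (0.861 to 0.879) from 69041 and 72651 counts, and Map2 one of 0.904 (0.893 to 0.915) from 50351 and 56318. Mapt had a ratio of 0.895 (0.873 to 0.918), Map6 0.921 (0.882 to 0.963) and Map4 0.927 (0.910 to 0.946). Among the stathmins, Stmn1 had the largest ratio at 1.11 (1.06 to 1.16). Stmn4 followed at 1.08 (1.03 to 1.14), Stmn3 at 1.08 (1.04 to 1.11) and Stmn2 at 1.07 (1.04 to 1.10). The intervals exclude 1 for every member, but they cover counting error only and hold none of the spread between animals or preparations. The share of all tested genes with such an interval was not worked out. The median log2 ratio of those genes was itself -0.07, so exclusion of 1 is not read as a trait of the members.

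The families also differ in transcript length, and the ratio varied with length over all genes. Mean effective length ran from 3112 bases for Map4 to 9953 for Map1a among the MAP genes, and from 954 for Stmn1 to 1468 for Stmn2 among the stathmins. Over 1006 protein-coding genes under 1000 bases the median log2 ratio was 0.05, and over 227 genes above 8000 bases it was -0.24, with 93.8% of these lower in replicate 2. Set against the median of genes of like length, the MAP genes lay from -0.07 to 0.04 on the log2 scale with a median of -0.02, and 5 of 6 stayed lower. The stathmins lay from 0.10 to 0.12 above the median of genes of like length, and all 4 stayed higher. By definition as many genes of like length lie above such a median as below it. The upper quartile of the log2 ratio was 0.134 under 1000 bases, beside 0.149 for Stmn1. From 1000 to 1500 bases it was 0.098, beside 0.095 for Stmn2, 0.107 for Stmn3 and 0.116 for Stmn4. The stathmins thus lay near the upper quartile of genes of their length. The part of length in these differences was not tested beyond this.

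Scaling changed some directions. With counts scaled by TMM, Map1a, Map1b and Map2 stayed lower in replicate 2, while Mapt, Map4 and Map6 were higher by 0.01 to 0.04 on the log2 scale. With spike-in scaling all 6 MAP genes were lower, Stmn1 and Stmn4 were higher by 0.04 and 0.03, Stmn2 was lower at -0.08, and Stmn3 lay at -0.00097. These values stand beside the median over all genes with enough counts, 0.025 with TMM and -0.17 with spike-in scaling.

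**Figure D2:**
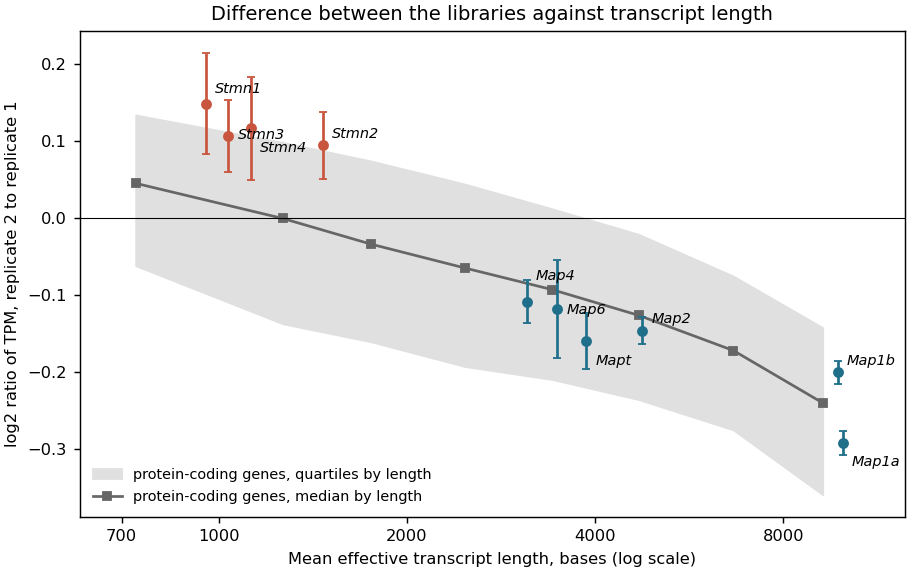
log2 ratio of TPM (replicate 2 to replicate 1) against mean effective transcript length in bases (log axis), with 95% counting intervals for each member. The grey line and band are the median and quartiles of protein-coding genes in bins of length; the MAP points lie from -0.07 to 0.04 off the median of their own bin, and the stathmin points 0.10 to 0.12 above it.

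Alternative transcripts were read by what they code for, because several transcripts of a gene carry the same coding sequence and the quantifications divided reads among them differently. Shares are percent of TPM, and those over transcripts with a complete coding sequence leave out short annotated fragments.

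Map2 makes a high molecular weight protein with a long projecting arm and short forms that lack it. The arm is coded by an exon of 3741 bases at chr1:66412407-66416147, and Map2-204, coding for 1828 residues, is the complete transcript that contains it. Map2-204 held 42.7% of Map2 TPM in replicate 1 and 42.4% in replicate 2 (42.5 ± 0.218%), and 55.0% of the gene's counts in each library. In the second quantification it held 31.8% and 34.3%. Over transcripts with a complete coding sequence, the long form held 53.3% and 53.0%, and 53.0% and 52.4% in the second quantification. On that basis alone the long and short forms were near equal in TPM, and the libraries and quantifications differed by under 1 percentage point. Complete transcripts held 80.1% and 79.9% of Map2 TPM, and 60.0% and 65.5% in the second quantification. The rest, including incomplete coding fragments, is left out. With every transcript overlapping the 3741-base exon counted, the long class held a mean of 48.8% of all Map2 TPM in the first quantification.

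The short class of 467 residues is coded identically by Map2-201, Map2-202 and Map2-205. It held 33.0% and 34.4% of Map2 TPM, and 24.0% and 26.2% in the second quantification. The first quantification placed it almost wholly in Map2-201, at 130 and 119 TPM, with Map2-202 at 3.51 and 13.1. The second gave Map2-201 under 1 estimated count in each library and Map2-202 200 and 187 TPM, so the choice of untranslated ends could not be read. The short fragment Map2-218, of 546 bases and without a complete coding sequence, held 4.79% and 4.55% of Map2 TPM in the first quantification and 21.3% and 16.2% in the second.

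The 93-base repeat exon shown above was in a small share of complete Map2 transcripts by TPM. Map2-206 and Map2-207, the forms of 498 residues that contain it, held 3.97% and 3.91% of complete-coding TPM, and 4.30% and 4.64% in the second quantification. In Map4 the corresponding exon was in most RNA: 92.2% and 95.1% of TPM of the 5 complete transcripts that reach the repeat domain, and 78.6% and 86.2% in the second quantification. Over complete annotated transcripts, the shares of Map2 and Map4 thus differed by far more than the libraries or quantifications did. Both shares depend on which forms are annotated: 2 of 7 complete transcripts have the exon in Map2 and 4 of 5 in Map4. In Map2 the only complete long form lacks the exon, and it held 53.3% and 53.0% of complete-coding TPM. Long Map2 RNA with the exon thus has no complete transcript of its own, and the Map2 share does not measure exon use. The quantifications were read over the same annotated transcripts. Whether the genes differ in use of the exon was not tested.

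For Mapt the use of its own repeat exon, called exon 10, could not be measured. All 5 complete coding transcripts of GENCODE M21 contain exon 10, so reads of tau without it have no transcript of their own and the share is 100% by construction. Over all protein-coding transcripts, transcripts with the exon held 86.0% and 86.8% of TPM. The remainder came mainly from Mapt-207, a 5′ fragment of 293 bases that held 11.2% and 12.1% of TPM from only 65.1 and 78.8 counts, and that was listed at 0 in the second quantification. These figures therefore say nothing of the balance of tau with and without the exon.

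The amino-terminal exons of Mapt, called exons 2 and 3, differ between annotated transcripts, and shares are given for those transcripts only. Of the 5 complete transcripts 3 contain both exons, and none contains only exon 2 or only exon 3. Tau RNA with just one of them thus has no complete transcript of its own, and the shares below do not measure exon use. They code for the inserts of the projecting arm, which are absent from the shortest tau. Both are 87 bases long, on the plus strand, at chr11:104287123-104287209 and chr11:104289908-104289994.
Mapt exon 2: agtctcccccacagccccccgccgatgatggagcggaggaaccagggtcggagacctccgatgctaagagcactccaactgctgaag
Mapt exon 3: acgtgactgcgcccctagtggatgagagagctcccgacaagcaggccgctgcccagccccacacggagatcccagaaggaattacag
Mapt-204, coding for 372 residues without exons 2 and 3, held 68.3% of Mapt TPM in replicate 1 and 73.7% in replicate 2, and 73.2% and 79.0% in the second quantification. Mapt-201, coding for 430 residues with both exons, held 10.8% and 8.69%, and 16.3% and 9.93% in the second quantification. Over complete transcripts, those with both exons held 15.0% and 11.7% of TPM, and 20.3% and 12.6% in the second quantification. As a share of counts they held 4.52% and 3.38%, because Mapt-201 is annotated with 1362 bases and Mapt-204 with 5253. How far these unequal lengths steer the division of reads between the forms was not tested. Transcripts with the large additional exon of the peripheral form of tau, of 733 and 749 residues, held 1.77% and 1.32% of complete-coding TPM.

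In the first quantification Map4 had the smallest share of RNA in complete coding transcripts, 59.5% and 63.0% of its TPM. Its leading form was Map4-204, of 933 residues, at 32.4% and 35.3% of TPM and 51.2% and 53.6% of counts. In the second quantification it held 20.5% and 23.2% of TPM. That form begins in an exon with 1453 coding bases that the forms Map4-201 and Map4-205 lack. These, of 1125 and 1124 residues, carry another exon of 1134 bases and held 15.4% and 15.1% of complete repeat-domain TPM, against 84.6% and 84.9% for forms with the 1453-base exon. The second quantification gave 19.8% and 20.2% for the 1134-base exon. Map4-206, coding for only 99 residues and no repeat domain, held 17.4% and 18.9% of TPM. The non-coding Map4-209, of 940 bases, held 18.2% and 16.6% of TPM but 5.03% and 4.41% of counts, and 10.6% and 9.66% of TPM in the second quantification. The second gave the non-coding Map4-207 11.1% and 12.5% and Map4-210 11.8% and 11.4%. The incomplete Map4-215 held 10.9% and 10.4% of TPM in the first quantification.

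**Figure D3:**
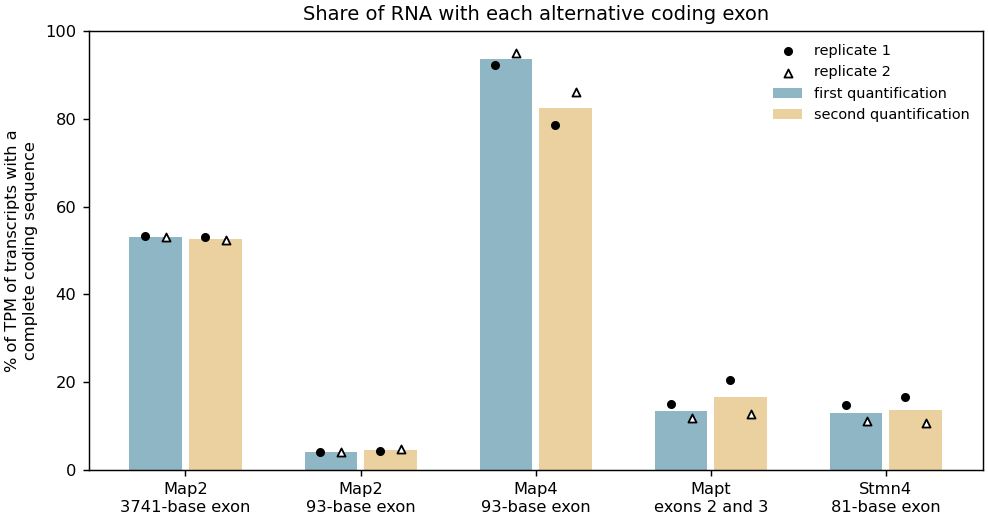
Percent of TPM of transcripts with a complete coding sequence that contain each alternative coding exon (for Map4, of the 5 that reach the repeat domain). Bars are the mean of the libraries from 0, circles replicate 1 and open triangles replicate 2, in the first and second quantification. The 93-base repeat exon stands near 4% in Map2 and at 78.6% to 95.1% in Map4.

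Map6 was led by the class of 906 residues, which Map6-201 and Map6-205 code for identically and which held 60.6% and 64.7% of TPM. In the second quantification it held 43.9% and 50.5%, while the non-coding Map6-209 held 19.4% and 16.2%, against 4.46% and 0 in the first. The split within the class was unstable: Map6-205 had 14.1 and 26.4 TPM in replicates 1 and 2, and Map6-201 at 13.1 and 0.33. The deposited credibility bounds of Map6-201 in replicate 1, 0.646 to 22.7 TPM, cover nearly that whole span, and the sum of both transcripts, 27.2 and 26.7 TPM, hardly moved. The second quantification did not show the switch, with Map6-201 at 15.0 and 12.3 TPM. The form of 568 residues, Map6-204, held 19.1% and 19.2%, and the class of 306 residues, assigned to Map6-202 in the first quantification, 11.5% and 12.2%.

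Map1a and Map1b were each dominated by 1 coding form. Map1a-202, of 2776 residues, held 83.4% and 83.2% of Map1a TPM, and Map1a-201, of 3014 residues, which has a longer amino terminus, held 13.0% and 13.8%. Map1b-201, of 2464 residues, held 82.0% and 78.9% of Map1b TPM and 96.8% and 96.1% of its counts. The non-coding Map1b-206 made up 10.5% and 11.9% of TPM in the first quantification and had under 1 estimated count in the second, which put 11.0% and 14.2% in another non-coding transcript, Map1b-202.

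Stathmin RNA was simple in Stmn3 and Stmn1, while in Stmn2 and Stmn4 the shares of transcripts varied with the quantification. Stmn3 has 1 annotated transcript, coding for 180 residues. In Stmn1 the class of 149 residues, coded by Stmn1-201 and Stmn1-203, held 98.1% and 97.8% of TPM, and 99.3% and 99.1% in the second quantification. Stmn2-201, coding for 179 residues, held 72.6% and 68.8% of Stmn2 TPM but 95.3% and 94.9% of its counts. The rest of the TPM was nearly all in Stmn2-203, a non-coding transcript of 308 bases with 26.9% and 30.9% of TPM from 3.74% and 4.50% of counts. Stmn2-203 was listed at 0 in the second quantification, where Stmn2-201 held 99.4% and 99.7%. Over complete coding transcripts alone, Stmn2 had 150.0 and 151.9 TPM, so in that quantification nearly all of its difference between the libraries lay in Stmn2-203. In the second quantification the difference lay in Stmn2-201, at 247 and 263 TPM.

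Stmn4 has an alternative coding exon of 81 bases at chr14:66356269-66356349, plus strand, which is absent from its leading form.
Stmn4 exon: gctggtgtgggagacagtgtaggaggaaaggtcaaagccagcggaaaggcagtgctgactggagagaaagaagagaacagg
Transcripts with this exon, Stmn4-203 of 216 residues and Stmn4-204 of 203, held 14.7% and 11.2% of complete-coding TPM, and 16.5% and 10.6% in the second quantification. Stmn4-201, of 189 residues without it, held 74.8% and 79.9% of Stmn4 TPM in the first quantification but 43.4% and 43.3% in the second. The second placed 108 and 162 TPM in Stmn4-209, a fragment of 418 bases that was listed at 0 in the first. That fragment also accounted for most of the difference between replicates in the second quantification, where complete Stmn4 transcripts were at 147 and 170 TPM.

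**Figure D4:**
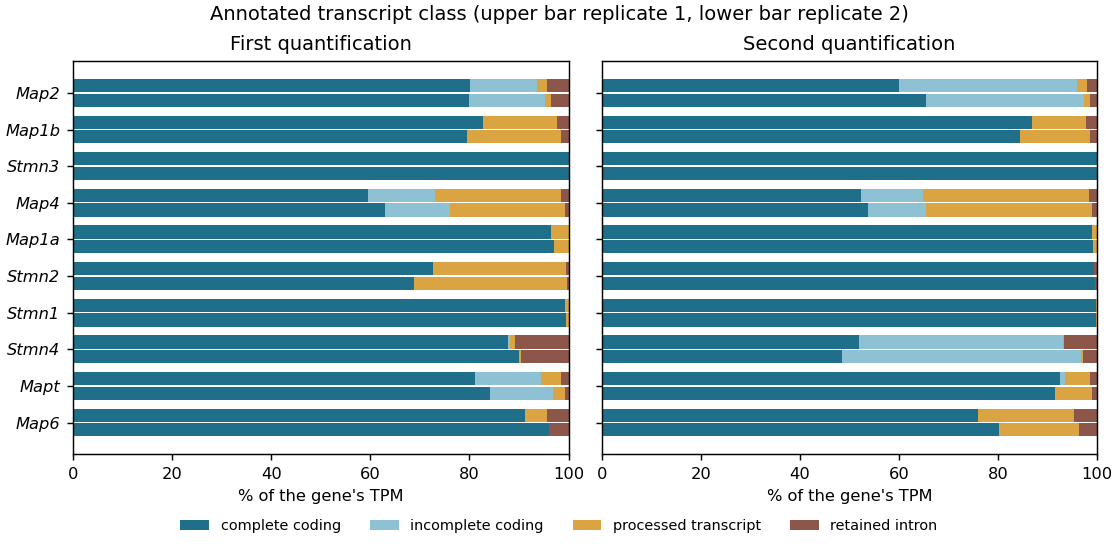
Percent of each gene's TPM by annotated class of transcript, in the first (left) and second (right) quantification, with replicate 1 as the upper and replicate 2 as the lower bar of each gene. Replicates resemble each other within a panel, while Map2, Map6, Stmn2 and Stmn4 differ most between panels. Mapt and Map4 differ by less. For Stmn2 complete coding transcripts hold 72.6% and 68.8% at left and 99.4% and 99.7% at right.

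Other genes of the microtubule cytoskeleton were read from 7 lists of 56 genes. Of these, 52 passed the count minimum, 43 were lower and 9 higher in replicate 2 and none was 2-fold apart, where 64.9%, 34.7% and 0.825% of all tested genes were, and the median log2 ratio was -0.09, beside -0.07 for all tested genes. As partners of the members, the kinases and phosphatases that act on MAPs were led by Ppp3ca, the catalytic subunit of calcineurin, at 533 ± 34.5 TPM, above Map2 itself. Mapk10, a stress-activated kinase of neurons, followed at 176 ± 6.69. In that list 13 of 14 were lower and 1 higher; this count and those of the lists that follow stand beside the 64.9% of all tested genes that were lower.

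Among other proteins bound to microtubules, Dclk1, a doublecortin-like kinase, was at 242 ± 4.19 TPM and Dclk2 at 46.1 ± 3.32, and 3 of 4 in that family were lower. Of the other structural MAPs, Tppp, a tubulin-polymerising protein of oligodendrocytes, was at 128 ± 1.08 TPM and Map1lc3a, an autophagy protein that binds MAP1 proteins, at 114 ± 11.4, with 9 of 13 lower. Dpysl2, a collapsin response mediator that binds tubulin dimers, was at 249 ± 4.84 TPM, the level of Stmn3 and Map4, and Crmp1 at 105 ± 4.56, with 3 of 5 lower.

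The list set up for plus-end proteins takes in the Clip genes by family name, and a place at plus ends was not tested for each. In it Clip3 was at 197 ± 28.5 TPM and Mapre3, an end-binding protein, at 96.5 ± 4.33, with 8 of 9 genes lower. The minus-end genes Camsap2 and Camsap1 were at 55.7 ± 2.79 and 54.4 ± 6.59, with 3 of 3 lower. Severing enzymes were low, led by Katnal1 at 24.9 ± 0.714 and Spast, spastin, at 23.6 ± 0.354, with 4 of 4 lower. The severing enzymes summed to 81.6 and 73.0 TPM, below any member except Map6 in both libraries.

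Some genes overlap the members. The gene Ppip5k1 lies on the opposite strand of Map1a with 3404 and 3504 counts; the libraries are stranded, but the strand setting of the counting is not named in the labels or file headers. On the same strand, the overlapping transcript 5330431K02Rik had 227 and 171 counts within Map1b, and Gm42433 had 143 and 136 within Map4. Gm45591 had 53 and 27 counts within Map6, beside 3691 and 4387 counts of Map6 itself.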

How the data were processed

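Ribosome-depleted, stranded total RNA libraries were quantified against mm10 and GENCODE M21, as the deposited notes state, and the aligner, its version and the strand setting were not given in the sources used here. The authors deposited expected counts and TPM per gene and transcript in the RSEM format, with the percent of the gene's TPM and credibility bounds per transcript. A second table in the kallisto format, made from reads, holds estimated counts and TPM per the file headers. TPM was used as deposited. Ratios needed a sum of 200 expected counts or more for a gene, and 2-fold was called, and exact Clopper-Pearson 95% intervals of the counts were scaled to the TPM ratio. TMM (edgeR 4.0.16) and DESeq2 1.42.0 gave size factors from expected counts rounded to whole numbers. With 1 group of 2 libraries no p-values are given. All members, transcripts with at least 10% of their gene's TPM in a library of either quantification, and the 2 genes of highest mean TPM in each of the 7 lists of other microtubule genes are named. Members and lists were chosen with earlier results of these data known. The ratio rule was tested on simulated data. No sample was left out; sequences are printed for some exons, and 1 is not reported here. Other tools were pandas 2.3.3 and scipy 1.17.1 under Python 3.11.15, and R 4.3.3.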

Additional observations from a re-analysis of the deposited data

How the results depend on the processing

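No paired analysis was possible because there is 1 group. The count of members 2-fold apart was 0 under every alternative run. In the second quantification, mean summed TPM was 2214 for the MAP genes and 1405 for the stathmins, the median log2 ratio of the members was -0.064, Map2-204 held 33.1% and the Mapt share with exon 10 was 99.5%. Over nuclear protein-coding genes the sums were 3102 and 1754 and the median ratio -0.066. The median ratio was 0.026 with TMM and 0.026 with DESeq2 size factors, where 3 members were lower with either, and -0.17 with spike-in scaling. Over all genes with enough counts the median was 0.025 with TMM and with DESeq2 size factors, and -0.17 with spike-in scaling. For TPM over nuclear protein-coding genes that all-gene median was -0.024. Single libraries gave 1244 to 1406 TPM for the MAP genes, 719 to 777 for the stathmins, 42.4% to 42.7% for Map2 and 86.0% to 86.8% for Mapt. By counts the Map2 share was 55.0% and the Mapt share 99.3%; over protein-coding transcripts the Map2 share was 45.0%, and over all transcripts the Mapt share 82.7%. Alternatives chosen after seeing the data were complete coding transcripts (sums of 1065 and 671 TPM, median ratio -0.035, shares of 53.1% for Map2 and 100% for Mapt), ratios relative to genes of like length (median 0.012) and any Map2 transcript overlapping the 3741-base exon (48.8%). The causes were not tested. Some short transcripts rest on few reads, such as Mapt-207 with 65.1 and 78.8 counts.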
